A study of Musculus with 2 samples.

Results

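Interferon-high fibroblasts were the fibroblasts of mouse subcutaneous fat that carried many transcripts of 3 interferon-induced antiviral genes. A cell counted as a fibroblast with at least 10 unique molecular identifiers (UMIs, each marking 1 captured RNA molecule) of Dcn, which encodes the matrix proteoglycan decorin, and none of Ptprc, Pecam1 or Epcam, which mark blood, vessel and epithelial cells. It counted as interferon-high with 15 or more UMIs of Rsad2, Ifit1 and Ifit3 together, called the trio below. The rule found 526 such cells, 388 in the control library and 138 in the LPCAT3-AKO library, among 24090 cells that passed quality filters. They were set against 10509 other fibroblasts, which carried fewer than 15 trio UMIs (5072 control and 5437 LPCAT3-AKO cells). The members were thus chosen by their raw trio UMIs, so the levels of Rsad2, Ifit1 and Ifit3, and every gene difference between the 2 sets of cells, are descriptions.

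The material was the stromal vascular fraction (SVF) of subcutaneous white adipose tissue (sWAT), that is, the cells left after collagenase digestion once mature fat cells have been spun off. Single cells were profiled on the 10x Genomics platform. The control group (WT) and the LPCAT3-AKO group, labelled as LPCAT3 knockout, had 1 library each. The sample labels give an age of 5 weeks and the series text gives an older one, so the age is unsettled. LPCAT3 is an enzyme that places polyunsaturated fatty acids into phosphatidylcholine, and the series title ties blocking this step in adipose tissue to insulin sensitivity. The strain, the promoter that drives the deletion, the cells it reaches and how many mice were pooled are not stated in the sources at hand. A single library per genotype allows no test, so differences between genotypes describe these 2 libraries, and all intervals cover counting error only.

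Type I interferons, such as interferon beta, bind a receptor found on nearly all cells, and the receptor's kinases activate transcription factors. These switch on a large set of genes whose products sense viral RNA and DNA, block viral replication and, in time, dampen the signal itself. Interferon gamma uses a receptor of its own and favours guanylate-binding proteins, immunity-related GTPases and antigen presentation. Fibroblasts of fat include the precursors of fat cells, and they both respond to interferon and secrete chemokines when they do.

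The control library held 13831 barcodes and 111669076 UMIs and the LPCAT3-AKO library 12806 barcodes and 119355147 UMIs, of which 12426 and 11664 barcodes were kept. The libraries shared 58 barcode sequences, 11 of them fibroblasts in both and 0 interferon-high in both. Interferon-high cells were deeper than other fibroblasts, with medians of 11574.5 against 9383 UMIs in the control library and 11836.5 against 9215 in the LPCAT3-AKO library. Their mitochondrial share was lower, at medians of 1.43% against 1.91% and 1.39% against 1.91%. Levels below are UMIs of a gene summed over the cells of a set, scaled to counts per 1000000 UMIs of that set (CPM), and log2 ratios are of CPM + 1. Lpcat3, the targeted gene, stood at 29.7 CPM in interferon-high and 26.7 in other control fibroblasts, and at 25.8 and 29.5 in the LPCAT3-AKO library. These levels do not check the labels, since the cells in which the knockout acts are not given.

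The fibroblast part of the name held up in both libraries. Of 12 fibroblast markers, 11 were left once Dcn, a gene of the rule, was set aside, and their median log2 ratio was -0.12 among control and -0.0039 among LPCAT3-AKO cells. Col3a1, a fibrillar collagen, stood at 8503 CPM in interferon-high and 10726 in other control fibroblasts, and at 10620 and 12995 in the LPCAT3-AKO library. The name's other 2 markers, Il1rl1 and Nptx2, behaved differently in the 2 libraries: they were high in control and not in LPCAT3-AKO interferon-high cells, as described below. Markers of T and NK cells, B cells and mast cells summed to at most 15.2 CPM in the interferon-high cells of either library, and all 6 mesothelial markers were at 0 there. Dendritic cell markers summed to 345 CPM in interferon-high and 338 in other control fibroblasts, and to 374 and 266 in the LPCAT3-AKO library. Endothelial markers summed to 88.9 and 70.6 CPM, and to 83.4 and 49.0. The part of these markers in the results was not tested.

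Interferon-high cells were 388 of 5460 fibroblasts in the control library, or 7.11% (exact 95% interval 6.44% to 7.82%), and 138 of 5575 LPCAT3-AKO fibroblasts, or 2.48% (2.08% to 2.92%). The control share was 2.87 times the LPCAT3-AKO share (2.36 to 3.51). The cells formed the upper tail of a continuous spread, and no gap set them apart. Most fibroblasts carried few trio UMIs, and 46.9% of control and 54.3% of LPCAT3-AKO fibroblasts carried none. Just outside the threshold, with 13 or 14 trio UMIs, lay 55 control and 36 LPCAT3-AKO cells, and just inside it, with 15 or 16, lay 42 and 20. Members had a median of 27 trio UMIs in the control library (quartiles 19 and 41, highest 225), and LPCAT3-AKO members a median of 25 (quartiles 18 and 34.75, highest 134). With a threshold of 10 UMIs the shares were 10.2% and 4.72%, and with 25 UMIs 3.99% and 1.29%. Relative to a cell's own depth, at 15 trio UMIs per 10000, they were 6.56% and 2.19%.

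**Figure D1:**
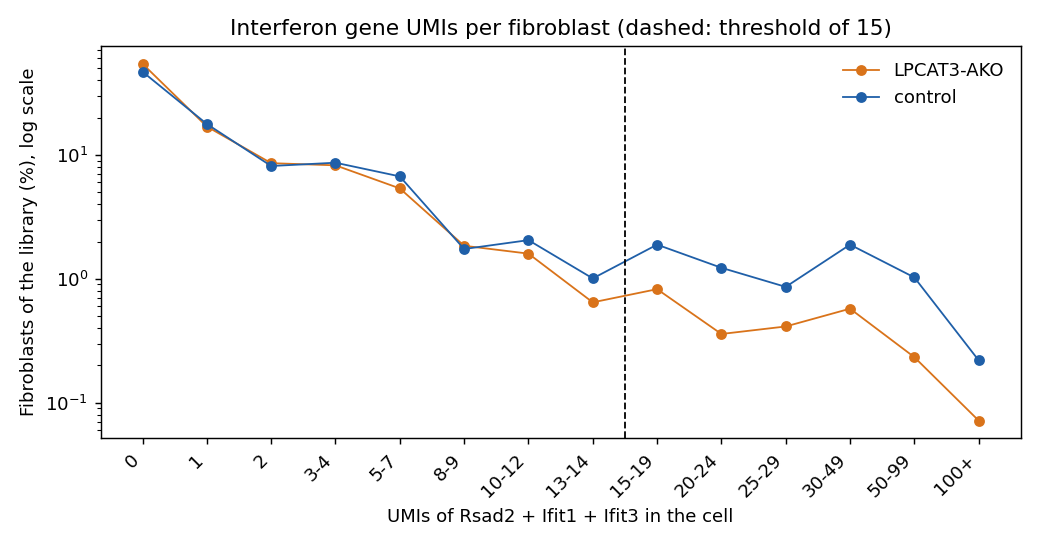
Percent of each library's fibroblasts (y axis, log scale) by the number of Rsad2, Ifit1 and Ifit3 UMIs in the cell (x axis, unequal bins), control in blue and LPCAT3-AKO in orange. The curves lie close together at low numbers and separate toward the right, where the control library holds 7.11% and the LPCAT3-AKO library 2.48% of fibroblasts beyond the dashed threshold.

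The trio was high by construction. Rsad2, which makes the antiviral protein viperin, stood at 529 CPM in interferon-high and 27.6 in other control fibroblasts, and at 344 and 18.6 in the LPCAT3-AKO library. Ifit1, whose product binds viral RNA lacking a mature cap, stood at 1511 and 98.7, and at 1225 and 80.2. Its relative Ifit3 stood at 846 and 47.0, and at 989 and 44.1. To list genes, a rule of size was set: a level of at least 20 CPM in the higher set, a ratio of at least 2, a counting interval that excludes 1, a UMI in at least 10% of the cells of the higher set, and no single cell with over 25% of the gene's UMIs there. In the control library 153 of 6171 genes, 2.48%, were higher by this rule in interferon-high cells, and 33, 0.535%, were lower. In the LPCAT3-AKO library 132 of 6159 genes, 2.14%, were higher, and 61, 0.99%, were lower. The median log2 ratio of all genes with enough UMIs was -0.01 and -0.08.

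Beyond the trio, 88 of 169 measured interferon genes were higher in the control library and 90 of 170 in the LPCAT3-AKO library, 81 of them in both, and none was lower in either. Their median log2 ratios were 1.11 and 1.12. These lists share their biology with the trio that chose the cells, so the counts describe how broad the response was. Of the effectors that act on viral RNA and protein, 42 of 57 and 45 of 57 were higher. Isg15, a ubiquitin-like tag joined to other proteins, stood at 1164 CPM in interferon-high and 169 in other control fibroblasts, and at 991 and 141 in the LPCAT3-AKO library. Trim30a and the oligoadenylate synthetase relative Oasl2 were higher in both libraries too, at 432 against 113 and 329 against 93.2 CPM in the control library.

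All 14 measured interferon GTPases were higher in each library, with median log2 ratios of 1.88 and 2.31. Iigp1, an immunity-related GTPase that attacks the vacuoles of intracellular parasites, stood at 806 and 118 CPM in the control and at 978 and 117 CPM in the LPCAT3-AKO library. Gbp2, a guanylate-binding protein, stood at 195 and 63.0, and at 235 and 59.5. Several of these genes have near-identical relatives in the mouse genome, and reads that match more than 1 of them could be lost or shared, so single levels are less certain than the group. Sensors of foreign nucleic acid followed, with 10 of 14 and 10 of 15 higher. Ifih1, which encodes the RNA sensor MDA5, stood at 219 and 52.2 CPM in the control library and at 163 and 43.9 CPM in the LPCAT3-AKO library. Zbp1, a sensor of Z-form nucleic acid, stood at 211 and 76.9, and at 179 and 65.1.

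The signalling chain upstream was less uniform. Among receptor and JAK-STAT genes, Stat2, a transcription factor activated by the type I receptor, was higher in both libraries. It stood at 173 CPM in interferon-high and 68.0 in other control fibroblasts, and at 183 and 65.9 in the LPCAT3-AKO library. The receptor chains did not pass the rule: Ifnar1 stood at 34.1 and 36.7 CPM in the control library and Ifnar2 at 85.2 and 82.0 CPM. Irf7, which amplifies interferon production, was the only one of 5 measured interferon regulatory factors past the rule, at 286 and 142 CPM, and at 461 and 199. Of 9 feedback genes, 4 and 3 were higher. Usp18, which strips ISG15 from proteins and blocks the receptor, stood at 208 and 49.4, and at 175 and 40.7. Socs1, an inhibitor of the receptor's kinases, stood at 59.9 and 26.5 in the control and at 240 and 69.3 in the LPCAT3-AKO library. Socs1 was thus higher in LPCAT3-AKO than in control fibroblasts on either side of the threshold.

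Genes of class I antigen presentation differed less. Tap1, the peptide transporter, was the only one of 17 past the rule in each library, at 80.3 and 28.6 CPM, and at 86.4 and 26.7. The median log2 ratio of the 17 was 0.28 and 0.47, and B2m, the light chain, stood at 1635 and 1508 CPM in the control and at 2047 and 1507 CPM in the LPCAT3-AKO library. The chemokine Cxcl10, which draws T cells, stood at 412 and 137 CPM, and at 898 and 147. A Cxcl10 UMI was seen in 46.6% of control interferon-high cells and in 24.9% of other control fibroblasts.

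Interferon genes themselves were almost absent. Of 21 interferon ligand genes, 16 had 0 UMIs in the kept cells of both libraries. Ifnb1, interferon beta, had 132 UMIs in all kept control cells and 123 in all kept LPCAT3-AKO cells. Interferon-high fibroblasts held 2 of the control UMIs, in 2 cells, and 4 of the LPCAT3-AKO UMIs, in 4 cells, and other fibroblasts held 10 and 10. Cells with C1q transcripts, a macrophage mark, held 41 and 38. The largest part, 79 and 71 UMIs, lay in the remaining kept cells, which were neither fibroblasts, C1q macrophages nor endothelial cells by the rules used. Scaled to the size of each set, Ifnb1 stood at 0.422 CPM in interferon-high and 0.208 in other control fibroblasts, a ratio between 0.216 and 9.52. In the LPCAT3-AKO library it stood at 2.40 and 0.191 CPM, a ratio between 2.88 and 43.6 that rests on the members' 4 UMIs. C1q macrophages stood at 1.82 and 1.77 CPM. Ifng, interferon gamma, had 175 and 65 UMIs, of which interferon-high fibroblasts held 1 and 0.

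Outside the interferon lists, 62 genes were higher in control and 39 in LPCAT3-AKO interferon-high cells, and 16 were higher in both, which is 25.8% of the control and 41.0% of the LPCAT3-AKO genes. Of the 62 control genes, 42 had a ratio in the same direction in the LPCAT3-AKO library and 20 in the opposite direction, 12 of these with a counting interval that excludes 1. These genes are only absent from the lists used. Whether interferon induces some of them, above all those past the rule in both libraries, was not tested. Genes past the rule in both libraries are described first, then those past it in the control library alone.

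With predicted Gm genes set aside, the highest control ratio of the shared set was that of Plscr2, a member of the phospholipid scramblase family. It stood at 64.9 CPM in interferon-high and 10.0 in other control fibroblasts, and at 85.8 and 8.83 in the LPCAT3-AKO library. A Plscr2 UMI was seen in 42.8% of control interferon-high cells and 7.83% of other fibroblasts, and after thinning every cell to 3000 UMIs in 17.5% and 2.57%. Other cells of the control library differed in this share, which was 0.554% in C1q macrophages and 39.2% in endothelial cells. Aftph, which makes a clathrin adaptor partner, stood at 200.4 and 52.0 CPM, and at 139 and 44.4. Slc25a22, a mitochondrial glutamate carrier, stood at 31.2 and 6.94, and at 22.8 and 7.21. Thbs1, the matrix protein thrombospondin 1, stood at 214 and 64.4, and at 177 and 57.8. In the LPCAT3-AKO library 1 cell held 23.4% of the members' Thbs1 UMIs, just under the limit of 25%. A Thbs1 UMI was seen there in 24.6% of interferon-high cells and 14.8% of other fibroblasts. B4galt5, a Golgi galactosyltransferase, stood at 73.6 and 22.3, and at 49.2 and 21.4. All 5 also passed the rule among control cells outside the cluster described below.

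The other 11 shared genes were Plekha4, Dcp2, Tor1aip2, Pcgf5, Ccl7, Tgm2, Sdc3, Asb13, Gm4841, Gm4070 and Gm20559. Gm4841 had a higher control ratio than Plscr2, at 29.9 and 2.74 CPM, and stood at 23.99 and 2.79 in the LPCAT3-AKO library. Ccl7, a monocyte-attracting chemokine, stood at 564 and 259 CPM in the control library and at 500.1 and 185 CPM in the LPCAT3-AKO library. Dcp2, an mRNA decapping enzyme, stood at 69.3 and 29.5, and at 57.0 and 27.2. Tgm2, a protein-crosslinking transglutaminase, stood at 136 and 66.3, and at 130 and 51.0. Gm4841, Dcp2, Tgm2 and the names in this list beyond Ccl7 were chosen after their values were seen.

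**Figure D2:**
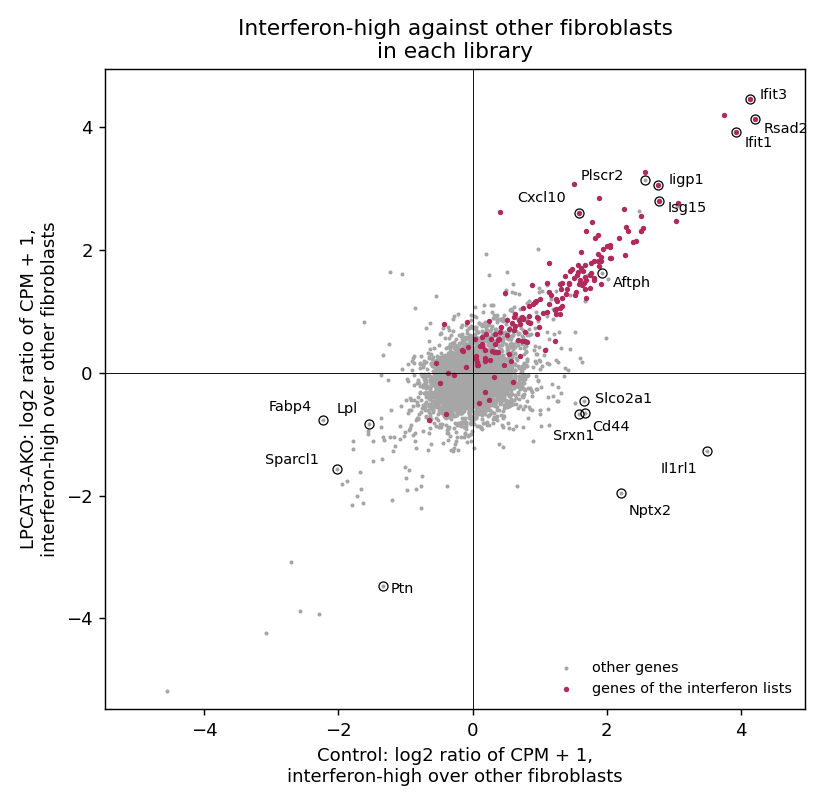
Log2 ratio of CPM + 1 in interferon-high over other fibroblasts, in the control library (x axis) and the LPCAT3-AKO library (y axis), 1 point per gene measured in either. Genes of the interferon lists (red) lie along the diagonal with Plscr2 and Aftph, whereas Il1rl1 and Nptx2 lie at the lower right, at 3.50 and 2.22 on the x axis and -1.28 and -1.96 on the y axis.

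The second set was led by Il1rl1, the receptor for interleukin 33. Il1rl1 stood at 310 CPM in interferon-high and 26.4 in other control fibroblasts, a log2 ratio of 3.50, and at 3.0 and 8.70 in the LPCAT3-AKO library, a log2 ratio of -1.28. The LPCAT3-AKO level rests on 5 UMIs in 2 of 138 cells, or 1.45%, against 25.3% of control interferon-high cells. Other fibroblasts carried an Il1rl1 UMI in 5.58% (control) and 3.79% (LPCAT3-AKO) of cells. Among other cell types the share was 1.38% and 1.22% in endothelial cells, at medians of 8928 and 8321 UMIs, and 12.7% and 15.1% in C1q macrophages, at medians of 7184.5 and 8603.5. The LPCAT3-AKO share of members was thus near the endothelial and below the macrophage one. Nptx2, a secreted pentraxin, stood at 49.1 and 9.79 CPM in the control library and at 1.2, from 2 UMIs, and 7.57 in the LPCAT3-AKO library. Its ratio there lay between 0.0191 and 0.576. Interferon-high cells of the control library held 29.9% of all Il1rl1 UMIs in that library's kept cells.

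The other genes of this set have varied roles. Cd44, the hyaluronan receptor, stood at 149 and 46.2 CPM in the control library and at 27.0 and 42.8 CPM in the LPCAT3-AKO library. Slco2a1, a prostaglandin transporter, stood at 227 and 70.7, and at 58.2 and 80.3. Srxn1, sulfiredoxin, which restores oxidised peroxiredoxins, stood at 111 and 36.5, and at 20.4 and 33.2. For these 3 genes interferon-high cells were above other fibroblasts in the control library and below them in the LPCAT3-AKO library. The same held for the small heat shock gene Hspb1, which is named from its list and is not among the 20 leading genes, at 230 and 94.0, and at 38.4 and 52.9. Emp1, a membrane protein gene, stood at 509.8 and 164, and at 239 and 212. Sdc4, a heparan sulfate proteoglycan, stood at 486 and 159, and at 161 and 136. Fosl1, an AP-1 subunit, Tnfrsf12a, the TWEAK receptor, Itga5, a fibronectin receptor chain, Prg4, lubricin, Lipg, a lipase, and Fam129b, Rnf180 and Rrp9 made up the rest of the 20 leading genes. Their control log2 ratios ran from 1.33 to 1.99, and 6 of them were under 20 CPM in both sets of LPCAT3-AKO cells, where the rule could not be applied. Tnfrsf12a stood at 23.99 and 22.8 CPM there and Itga5 at 37.2 and 47.0, short of the rule.

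Graded by the trio's share of a cell's UMIs, the 2 sets of genes parted in the same way. The grading uses the same cells and trio UMIs as the rule, so it restates the contrast in steps and is no separate support. From fibroblasts with no trio UMI to those with 20 or more per 10000, Isg15 went from 55.2 to 1425 CPM in the control library and from 49.5 to 1229 in the LPCAT3-AKO library. Plscr2 went from 4.75 to 80.4 and from 4.07 to 118. Il1rl1 went from 14.1 to 406 CPM in the control library, with 74.7 already at 5 to 10 per 10000. In the LPCAT3-AKO library it went from 7.33 at no trio UMI to 14.01 at 5 to 10 per 10000 (10.5 to 18.4), and stood at 3.35 at 20 or more (0.691 to 9.79). Cd44 went from 45.2 to 192 and from 47.2 to 23.4. Fibroblasts with no trio UMI were shallower, with medians of 8754 and 8445 UMIs, than those at 20 or more, with 10730 and 9175.

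**Figure D3:**
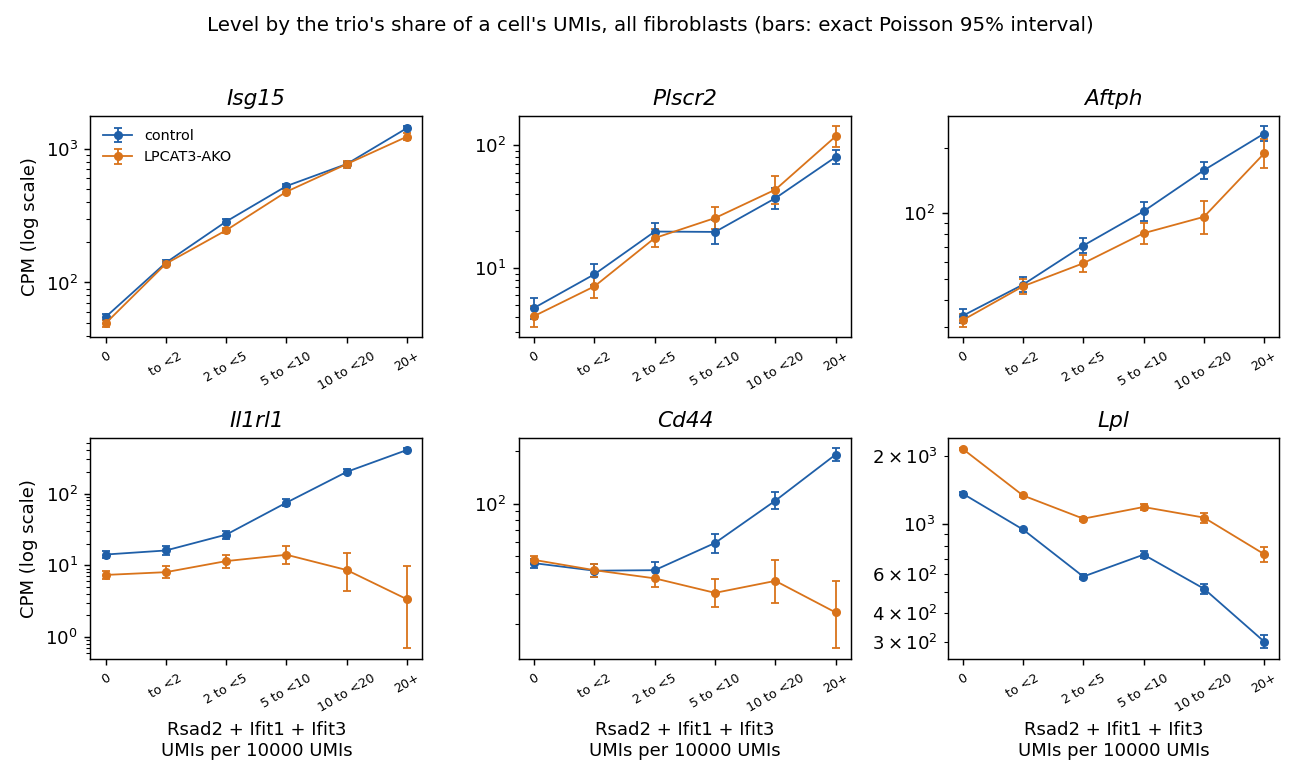
Level in CPM (y axis, log scale) of 6 genes in fibroblasts graded by trio UMIs per 10000 UMIs (x axis), control in blue and LPCAT3-AKO in orange. Isg15, Plscr2 and Aftph climb in both libraries, Il1rl1 and Cd44 reach 406 and 192 CPM in the control library and 3.35 and 23.4 CPM in the LPCAT3-AKO library at the right end, and Lpl is lower at the right end than at the left in both.

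The control set was concentrated in 1 group of cells. Fibroblasts of both libraries were clustered with all interferon-list genes left out, which gave 14 clusters. Il1rl1, Nptx2 and the other leading genes were not left out, so the clusters could form on them. Their levels inside and outside a cluster are thus descriptions, fixed in part by the clustering. The cluster with the highest share of interferon-high cells, picked after the values were seen and called the Il1rl1 cluster here, held 195 control cells, 3.57% of control fibroblasts, and 13 LPCAT3-AKO cells, 0.233%. Its share was 15.3 times as large in the control library (8.75 to 29.3). A cluster that is mostly from 1 library may reflect that library and not a cell type, and the rest of the data give no second control library. In it 121 of 195 control cells were interferon-high, or 62.1% (54.8% to 68.9%), and these were 31.2% of all control interferon-high cells. Of the 13 LPCAT3-AKO cells, 0 were interferon-high, which allows a share of up to 23.1%, taking 3 counts as the limit of a count of 0.

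Within the Il1rl1 cluster, 1 of the 20 leading genes, Plscr2, passed the rule between the interferon states. The counting interval of the ratio included 1 for 9 of them, lay above 1 for 6 and below 1 for 5, Il1rl1, Cd44 and Slco2a1 among the last. Il1rl1 stood at 949 CPM in its interferon-high and 1053 in its other control cells, Nptx2 at 128 and 124, Cd44 at 355 and 413, Slco2a1 at 582 and 665, and Srxn1 at 263 and 280. The other cells of the cluster still had a raised trio, with a median of 5 UMIs against 0 in other fibroblasts outside it, and Isg15 at 559 CPM against 163. Plscr2 stood at 65.1 and 16 CPM inside the cluster. Over all genes, 116 of 6267 were higher in the cluster's interferon-high cells, 60 of them in the interferon lists and 56 outside, and 104 were lower. The 13 LPCAT3-AKO cells of the cluster had Il1rl1 at 138, Nptx2 at 195, Cd44 at 340 and Isg15 at 176 CPM. Few cells stand behind these values.

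Among control fibroblasts outside the cluster, 5 of the 20 leading genes kept their call, and all 5 were of the shared set. Il1rl1 stood at 38.1 and 11.6 CPM there, a ratio between 2.70 and 4.01, but had a UMI in 7.87% of the interferon-high cells, short of the 10% the size rule asks for. Nptx2 stood at 15.6 and 8.14, Cd44 at 62.2 and 40.9, Srxn1 at 47.1 and 33.0, and Fosl1 at 11.7 and 12. In all, 109 genes were higher outside the cluster in the control library, 86 of them in the interferon lists, against 132 and 93 in the LPCAT3-AKO library. Fibroblasts with 3 or more Il1rl1 UMIs were interferon-high in 70 of 157 control cells, 44.6% (36.7% to 52.7%), and in 1 of 40 LPCAT3-AKO cells, 2.5% (0.0633% to 13.2%). Il1rl1 led the control ratios of these same cells, so the control share restates that contrast and is a description. The choice also overlaps the cluster: of control interferon-high cells with an Il1rl1 UMI, 77 lay inside it and 21 outside.

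**Figure D4:**
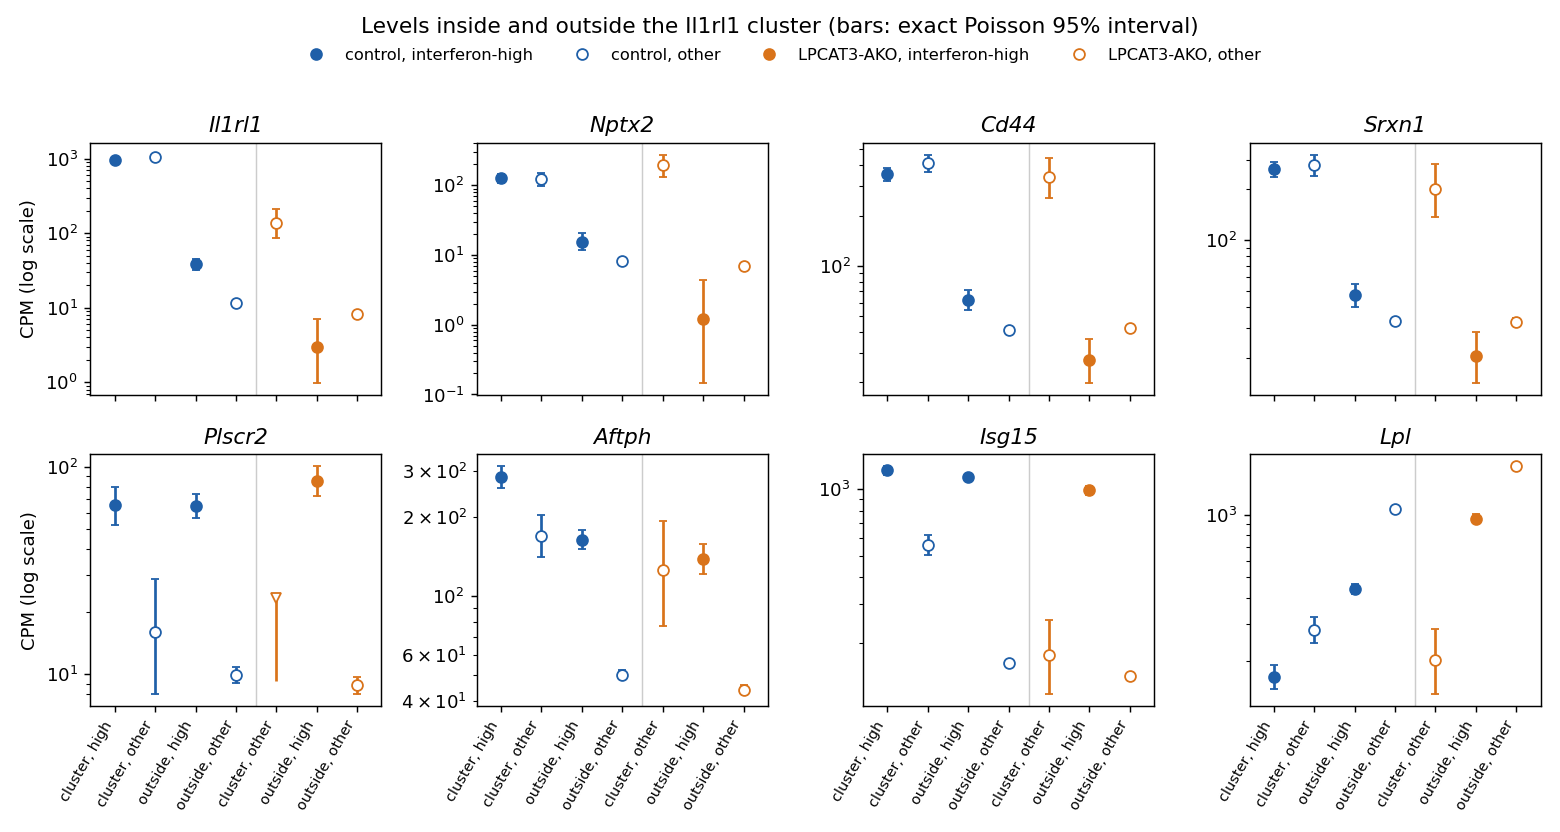
CPM (y axis, log scale) of 8 genes by library, position inside or outside the Il1rl1 cluster, and interferon state (filled, interferon-high; open, other), with a downward triangle for the upper limit of a level of 0. Il1rl1, Nptx2, Cd44 and Srxn1 are high inside the cluster at either state, whereas Plscr2 and Isg15 are high in interferon-high cells inside and outside it.

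The difference in share was not limited to that cluster. Outside it 267 of 5265 control fibroblasts, 5.07%, and 138 of 5562 LPCAT3-AKO fibroblasts, 2.48%, were interferon-high, and the control share was 2.04 times as large (1.66 to 2.53). With the other 13 clusters weighted alike in both libraries the shares were 4.82% and 2.54%. The control share was the higher one in 14 of 14 clusters, and the counting interval of the ratio lay above 1 in 4 of them, the Il1rl1 cluster included. Interferon-high cells occurred in 14 control clusters and in 12 LPCAT3-AKO clusters. Outside the Il1rl1 cluster, shares ran from 0.803% to 13.1% in the control library and from 0% to 7.54% in the LPCAT3-AKO library.

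**Figure D5:**
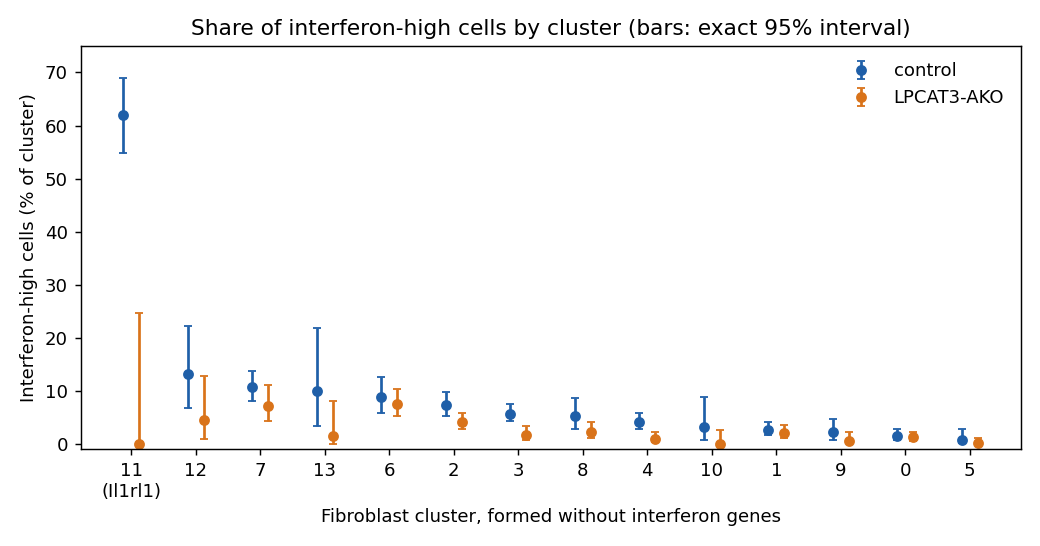
Percent of cells that were interferon-high (y axis) in each of 14 fibroblast clusters (x axis, ordered by the control share), with exact 95% intervals. The Il1rl1 cluster stands at 62.1% in the control library, and in all clusters the control point lies above the LPCAT3-AKO point.

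Genes that were lower in interferon-high cells included markers of fat cell precursors that are closer to becoming fat cells. Of 15 genes on the list of Icam1- and Col15a1-expressing precursors, 6 were lower in the control library and 5 in the LPCAT3-AKO library, with median log2 ratios of -0.85 and -0.91. Lpl, lipoprotein lipase, stood at 360 CPM in interferon-high and 1053 in other control fibroblasts, and at 954.7 and 1696 in the LPCAT3-AKO library. Fabp4, a fatty acid carrier, stood at 130 and 616, and at 477 and 812. In the LPCAT3-AKO library Lpl and Fabp4 fell short of a ratio of 2, and 1 of the 138 cells held 44.0% of the members' Fabp4 and 18.7% of their Lpl UMIs. Without that cell, a choice made after the values were seen, Fabp4 stood at 272 and Lpl at 790 CPM, both passed the rule, and 71 genes were lower. Col15a1, a basement membrane collagen, stood at 65.1 and 150, and at 121 and 295, and Sparcl1, a matrix protein, at 37.9 and 157, and at 77.4 and 231.

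In all, 18 genes were lower in both libraries, 54.5% of the 33 control and 29.5% of the 61 LPCAT3-AKO genes. They included the growth factors Mdk, Ptn and Fgf10, the lysophospholipase Enpp2 that makes lysophosphatidic acid, the nuclear receptor Nr2f2 and the basement membrane collagen Col18a1. Fgf10 stood at 20.6 and 68.5 CPM in the control and at 33.0 and 103 CPM in the LPCAT3-AKO library. Enpp2 stood at 8.43 and 33.6, and at 14.4 and 51.3. Nr2f2 and Col18a1 were chosen after their values were seen. Of the 15 lowest control genes, 14 were also lower outside the Il1rl1 cluster. The number of lower genes changed with the weighting of cells, however. When other fibroblasts were weighted to the clusters of the interferon-high cells, 3 control and 14 LPCAT3-AKO genes were lower, and 91 and 105 were higher. The lower genes were not left out of the clustering, so this weighting can shrink their differences by construction. The part of cell mix was not tested.

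Markers of the Dpp4- and Pi16-expressing precursors, which lie further from the fat cell fate, showed no such difference. Of 18, none was higher, and 0 control and 1 LPCAT3-AKO genes were lower, with medians of -0.13 and -0.15. Pi16 stood at 2257 and 2527 CPM, and at 2516 and 2464. On the list of F3-expressing stromal cells 1 of 8 was lower in each library, in the control library the flavin monooxygenase Fmo2 at 14.3 and 37.6 CPM, which was 58.8 and 47.9 in the LPCAT3-AKO library. Of 6 genes of the Ccn5 list, none passed the rule in the control library and 2 were higher in the LPCAT3-AKO library.

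Most other programs had a control median log2 ratio near that of all genes, -0.01. The lists below ran from -0.22 (adipogenesis) to 0.21 (heat shock). Among LPCAT3-AKO cells the median of all genes was -0.08. Cell death (0.39, 7 genes), complement (0.32, 8 genes) and NF-kB genes (0.32) lay above it. The other lists ran from -0.11 to 0.11. Of 31 and 29 NF-kB and inflammation genes, Ccl7 alone was higher in the control library and 3 were higher in the LPCAT3-AKO library. Over all genes the shares were 2.48% and 2.14%. The NF-kB list summed to 8033 and 7111 CPM, and to 7117 and 5254. Of 25 and 24 immediate-early genes, 1 was higher in the control library (Fosl1) and 1 lower in the LPCAT3-AKO library, and Fos stood at 3005 and 3523 CPM, and at 3061 and 3180. Of 14 heat shock genes 1 was higher in the control library (Hspb1) and 1 lower in the LPCAT3-AKO library (Hspa1b). Of 38 matrix genes 3 were higher in the control library, namely Thbs2, Thbs1 and Timp1, and in the LPCAT3-AKO library 2 were higher, Thbs1 and Adamts4, and 1 was lower, Postn. Thbs2 stood at 895 and 390 CPM, and at 730 and 396. Timp1, an inhibitor of matrix proteases, stood at 105 and 42.8 CPM in the control library but at 60.6 and 71.2 in the LPCAT3-AKO library. None of the genes on the lists of the unfolded protein response, p53 targets, cell death, cell cycle, adipogenesis, complement or phospholipid remodelling passed the rule over all fibroblasts of either library. The lipid genes Lpl, Fabp4 and Cd36, lower in the control library, were counted on the list of Icam1- and Col15a1-expressing precursors instead. Inside the Il1rl1 cluster 3 of 12 adipogenesis genes and 1 of 5 cell death genes were lower.

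Macrophage markers were somewhat higher in control interferon-high cells, and their part in these results was not tested. The 16 markers summed to 631 CPM in interferon-high and 432 in other control fibroblasts, and to 462 and 395 in the LPCAT3-AKO library, with none of the 16 at 0. None passed the rule, the medians of those measured were 0.67 and 0.31, and C1qa was seen in 32.5% of control interferon-high cells and 30.5% of other fibroblasts. With doublet-scored cells removed the control median was -0.15. Doublet scoring marked a preset number of top-scoring cells in each library. Among the control members 26 of 388 were marked, 6.70%, against 7.75% of other control fibroblasts. Among the LPCAT3-AKO members 3 of 138 were marked, 2.17%, against 6.84%. The marked control members were 26 of 267 outside the Il1rl1 cluster and 0 of 121 inside it. Among other control fibroblasts outside the cluster, 390 of 4998 were marked. In those outside cells 5 of 13 macrophage markers were higher in control members, with a median of 0.90.

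Of the 39 genes outside the interferon lists that were higher in LPCAT3-AKO interferon-high cells, 23 did not pass in the control library. Named after their values were seen, they included the B cell chemokine Cxcl13, at 358 and 118 CPM in the LPCAT3-AKO and 114 and 96.2 CPM in the control library. Il6, interleukin 6, stood at 212 and 97.4 in the LPCAT3-AKO and at 117 and 104 in the control library. Gpx3, a secreted glutathione peroxidase, stood at 3327 and 1555, and at 1337 and 1078. The matricellular gene Ccn5 stood at 210 and 99.8, and at 127 and 82.4. All 4 were above other fibroblasts in both libraries, by less in the control library.

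Set directly against each other, LPCAT3-AKO interferon-high cells had 372 of 6159 genes, 6.04%, higher and 613, 9.95%, lower than control interferon-high cells at a ratio of 1.5 or more. The sets differ in number of cells and in the share inside the Il1rl1 cluster, 31.2% and 0%, where 0 of 138 allows up to 2.17%. Il1rl1 was the clearest example, with a log2 ratio of -6.28 (3.0 over 310 CPM). Among other fibroblasts its log2 ratio was -1.50, at 8.70 over 26.4 CPM.

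Several interferon genes differed less between the libraries once interferon-high cells were left out. Over all fibroblasts, 69 of 6063 genes, 1.14%, were higher in LPCAT3-AKO cells and 48, 0.792%, were lower, at a ratio of 1.5. Over other fibroblasts alone 66 of 6055, 1.09%, were higher and 38, 0.628%, lower. Of the 117 genes listed over all fibroblasts, 98 were listed again without the interferon-high cells. The 10 lower genes that were lost were Rsad2, Ifit1, Ifit3, Isg15, Igtp, Tnfrsf12a, Dhrs9, Znhit6, 9930111J21Rik2 and F830016B08Rik. A loss can be a small shift across the threshold: Znhit6 went from a log2 ratio of -0.61 to -0.56, Dhrs9 from -0.66 to -0.53 and F830016B08Rik from -0.56 to -0.47. The 9 higher genes that were lost moved little too, such as Plpp1, a lipid phosphatase, from 0.57 to 0.55 and Sparcl1 from 0.62 to 0.55. Isg15 had a log2 ratio of -0.62 over all and of -0.25 over other fibroblasts, and Igtp, an immunity-related GTPase, of -0.61 and -0.30. The trio's loss was fixed in part by the rule, since interferon-high cells held 65.4% of control fibroblast Rsad2 UMIs and 37.0% of LPCAT3-AKO ones. The same holds for genes that follow the trio. Interferon-high cells held 40.4% and 18.2% of Isg15 UMIs, and 36.8% and 16.3% of Igtp UMIs. Leaving out cells chosen for the trio thus had to shrink these gaps, and the smaller ratios are a description.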

How the data were processed

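Single-cell RNA of the SVF of sWAT was measured in 1 control and 1 LPCAT3-AKO library. Values deposited by the authors are raw counts of UMIs for each gene in each barcode, with no normalization. Per the submitters' processing notes, Cell Ranger 6.1.2, Seurat 4.10 and the mm10 build were named, and the annotation release is not given there. The files list 32285 genes, named by deposited symbol.

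Barcodes were kept from 500 detected genes upward, with no more than 10% of UMIs from mt- genes. The members were found by the stated UMI thresholds. UMIs were summed per set of cells. Exact Poisson intervals (95%) were given for CPM, Clopper-Pearson intervals for shares and exact binomial intervals for ratios. The fibroblasts were clustered with scanpy 1.11.5 on 2000 variable genes, 30 principal components and 15 neighbours at Leiden resolution 1 (seed 0), without interferon-list, mt-, Rpl, Rps and sex-linked genes. Doublets were scored with Scrublet per library and removed in an alternative alone, 1235 control and 1088 LPCAT3-AKO cells. The script was tested on simulated data. No p-value was computed, and no replicates exist.

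The members and the gene lists were chosen with earlier results of these data known. Named genes were the rule's genes, Lpcat3, the 20 highest and 15 lowest control ratios past the size rule outside the interferon lists (without mt-, ribosomal, Gm, Rik, haemoglobin, immunoglobulin and sex-linked genes and other cells' markers), up to 6 members per list by level, and genes whose library call was lost without the interferon-high cells. Some are given by count alone, and some are not reported here. Alternatives covered the trio threshold, depth, doublets, cluster mix, thinning to 3000 UMIs, averaging over cells, the CPM minimum and the pseudocount. Leaving out the Il1rl1 cluster, or 1 cell rich in Fabp4, was added after seeing the data. The bulk RNA sequencing of the study was not analysed here.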

Additional observations from a re-analysis of the deposited data

Results flagged for a closer look

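For 5 of the 20 leading genes, interferon-high cells lay above other fibroblasts in the control library and below them in the LPCAT3-AKO library, with counting intervals on opposite sides of 1. With 1 library per group the difference between the libraries was not tested. The log2 ratio in the LPCAT3-AKO library was -1.28 for Il1rl1, against 3.50 in the control library. It was -1.96 for Nptx2 against 2.22, -0.65 for Cd44 against 1.67, -0.68 for Srxn1 against 1.58, and -0.46 for Slco2a1 against 1.67. Over all 62 control genes outside the interferon lists this held for 12, Hspb1 among them, at -0.45 against 1.28. The LPCAT3-AKO values of Il1rl1 and Nptx2 rest on 5 and 2 UMIs.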

How the results depend on the processing

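No paired analysis was possible because each group holds 1 library and no result comes from a test. The LPCAT3-AKO state rests on 138 cells, and low genes there on few UMIs. The control share of interferon-high cells was 10.2% and 3.99% at thresholds of 10 and 25 UMIs and 5.07% without the Il1rl1 cluster, and the LPCAT3-AKO share 4.72% and 1.29% at those thresholds. The ratio of LPCAT3-AKO to control, 0.348, became 0.464 at 10 UMIs and 0.489 without the cluster, and was 0.526 with the other clusters weighted alike. Genes higher in the control state numbered 91 with comparators weighted to clusters. Genes lower there, 33 at first, numbered 64 at 25 UMIs, 3 weighted to clusters, 56 with CPM averaged over cells and 16 at a minimum of 50 CPM. Genes lower in the LPCAT3-AKO state, 61 at first, numbered 28 at 10 and 148 at 25 UMIs, 14 weighted to clusters and 25 at 50 CPM. Library differences outside the state numbered 39 higher and 24 lower at 50 CPM, where fewer genes were measured. The other 53 alternative values of these results were not counted as moved. Changes beyond those listed still occurred: without the Il1rl1 cluster 109 genes were higher and 23 lower in the control state, against 153 and 33. Sizes of single genes moved more: of 35 named control ratios, 31 moved beyond their counting interval and 4 changed sign with comparators weighted to clusters, and 22 moved without the Il1rl1 cluster. Over all alternatives 123 values of named genes and 55 list medians moved. Log2 ratios changed sign for Fosl1 without the cluster (-0.034), for Il1rl1 (-0.058), Slco2a1 (-0.034), Itga5 (-0.092), Lipg (-0.11) and the p53 median (-0.10) with comparators weighted to clusters, and for the macrophage marker median (-0.15) with doublets removed; the cause was not tested.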

Other observations

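Other cells of the fraction also passed the trio threshold. Among C1q macrophages, 399 of 2890 control cells, 13.8%, and 201 of 2232 LPCAT3-AKO cells, 9.01%, had 15 or more trio UMIs, and among endothelial cells 8 of 217 and 6 of 246. Some of the genes outside the interferon lists that marked the fibroblast state were higher in macrophages past the threshold too, and some were not. Isg15 stood at 1091 CPM in macrophages past the threshold and 255 in other control macrophages. Il1rl1 stood at 11.7 and 22.1, and Aftph at 186 and 161. Plscr2 stood at 0.507, from 2 UMIs, and 0.809. Slc25a22 stood at 42.6 and 13.6, Ccl7 at 2227 and 772, Tor1aip2 at 149 and 67.3, and B4galt5 at 150 and 84.8. In the LPCAT3-AKO library Slc25a22 stood at 18.4 and 10.7 CPM and Ccl7 at 978 and 601. Cd44 in macrophages past the threshold was above other macrophages in the control library, at 276 and 175 CPM. It was below them in the LPCAT3-AKO library, at 113 and 186 CPM, as in fibroblasts. Il1rl1 was below in that library too, at 10.7 and 22.5. Slco2a1 stood at 2.79 and 6.31 in the control library and at 2.95 and 3.69 in the LPCAT3-AKO library. The ratio interval of Srxn1 included 1 in both. These values are descriptions of 1 library each.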
